A study of Mus musculus with 2 samples.

Results

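The genes described here are 8 regulators of developmental timing: the RNA-binding proteins Lin28a and Lin28b, the mRNA-binding proteins Igf2bp1, Igf2bp2 and Igf2bp3, the chromatin proteins Hmga1 and Hmga2, and Trim71, the mammalian counterpart of the nematode gene lin-41. They were chosen by symbol, not by their values, and all 8 were found among the 43346 Ensembl genes of the gene tables, of which 21474 are protein-coding. The material was midbrain of mouse embryos of strain B6NCrl at embryonic day 16.5, males and females pooled, from which total RNA longer than 200 nucleotides was sequenced. There is 1 group, and the labels name no treatment, allele or other age. It holds 2 libraries labelled biological replicates 1 and 2. The pool of replicate 2 came from 37 embryos, the number is not given for replicate 1, and both carry the same donor identifier. No condition can be compared and no p-value can be had, so every difference between the libraries describes these 2 pools.

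Heterochronic genes set when a cell leaves an early developmental state. Lin28a and Lin28b bind the precursors of let-7 microRNAs and block their maturation, and let-7 in turn represses mRNAs that carry matches to its seed, the bases that start pairing with a target. Lin28, Igf2bp, Hmga2 and Trim71 mRNAs are textbook let-7 targets, and in the developing brain these genes are known for high levels in early neural stem and progenitor cells and a decline as development goes on, while let-7 and miR-125 accumulate.

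The library of replicate 1 held 31830355 expected counts and that of replicate 2 held 36576263, and spike-in sequences took 1.49% and 2.23% of them. All 6 markers of midbrain (Otx2, En1, Pax7, Meis2, Tfap2d and Gata3) were at 1 TPM or more in both libraries, as were all 6 markers of young neurons and all 8 of neural progenitors. TPM is a level per transcript length, with every library brought to an equal sum. The tissue also held RNA of red cells, vessels, meninges and microglia, whose marker lists are given with the ratios between the pools.

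The sequences that link these genes are the microRNA seeds and their matches in the 3′ untranslated regions (3′ UTRs). The mature microRNAs are shown first because they define the match, from RefSeq on GRCm38.p6, with the seed (bases 2 to 8) in capitals. Both lie in the same host RNA, Mir99ahg, on the plus strand of chromosome 16, let-7c-5p from the copy Mirlet7c-1 at chr16:77599672-77599693 and miR-125b-5p from Mir125b-2 at chr16:77646279-77646300.
let-7c-5p: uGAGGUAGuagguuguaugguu
miR-125b-5p: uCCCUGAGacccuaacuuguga

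All 9 mature let-7 and miR-98 5p arms in the table share the seed GAGGUAG, as do let-7k and miR-1961. The letters searched were CTACCTC for let-7 and CTCAGGG for miR-125, in the sense strand only, within the longest annotated 3′ UTR of each gene in GENCODE M21 on GRCm38. The match nearest the stop codon in each gene is shown here, in 30 bases of transcript sequence that end 1 base after it, with the match in capitals. Hmga1, at chr17:27563270-27563299, lies on the plus strand. The others lie on the minus strand, Lin28a at chr4:134005189-134005218, Lin28b at chr10:45381022-45381051, Igf2bp1 at chr11:95961778-95961807, Igf2bp2 at chr16:22059473-22059502, Igf2bp3 at chr6:49086787-49086816, Hmga2 at chr10:120364224-120364253 and Trim71 at chr9:114512472-114512501.
Lin28a: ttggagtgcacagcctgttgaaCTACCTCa
Lin28b: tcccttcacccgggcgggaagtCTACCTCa
Igf2bp1: aggcagtgctgtgcgaagtaaaCTACCTCa
Igf2bp2: gagaaaaacacacaaataaaagCTACCTCa
Igf2bp3: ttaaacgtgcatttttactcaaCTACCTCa
Hmga1: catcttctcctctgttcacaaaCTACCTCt
Hmga2: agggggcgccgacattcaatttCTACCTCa
Trim71: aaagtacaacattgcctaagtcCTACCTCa

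All 8 genes held a let-7 match, with 21 matches in all, where 9.11% of the longest 3′ UTRs of 20830 protein-coding genes held at least 1. Several of these genes are known as let-7 targets, so the count is a description and not independent evidence. Lin28b, Igf2bp1, Hmga2 and Trim71 had 4 matches each, Lin28a had 2, and Igf2bp2, Igf2bp3 and Hmga1 had 1 each. Long UTRs hold more matches by length alone, and the UTRs of Igf2bp1 (6337 bases), Trim71 (5512 bases) and Lin28b (4445 bases) are the longest of the set. Among UTRs of 0.8 to 1.25 times the same length, 4 or more matches were found in 0.331% for Igf2bp1, 0.479% for Trim71 and 0.295% for Lin28b. These are shares of 605, 835 and 1358 UTRs, so each stands for only a few UTRs. Every like-length share given here includes the gene itself and any other of the 8 genes within that length range. Such small shares are therefore no independent background. Hmga2 had the densest set, 1.33 matches per kilobase over 3014 bases, and 0.123% of UTRs of like length held as many. For Lin28a, 2.06% of UTRs of like length had 2 or more. A single match was commoner: 12.1% of UTRs as long as that of Igf2bp2, 13.3% for Igf2bp3 and 8.24% for Hmga1 held at least 1.

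The base after the match was A, the context that a let-7 site prefers, at all 4 matches of Trim71, both of Lin28a, 3 of 4 in Igf2bp1 and the single ones of Igf2bp2 and Igf2bp3. It was A at 1 of 4 in Lin28b and in Hmga2, and not at the match of Hmga1. The matches at positions 3591 and 3617 after the stop codon of Trim71 lie within 30 bases of each other. The miR-125 letters were found once each in Lin28a, Lin28b, Igf2bp3 and Trim71, that is in 4 of 8 genes. Of all longest 3′ UTRs, whose median length is 976 bases, 13.2% held at least 1. Among UTRs of like length, 24.7%, 32.5%, 20.4% and 37.8% did for these 4 genes. For the genes without a match, that share was 42.3% for Igf2bp1, 26.5% for Hmga2, 18.1% for Igf2bp2 and 12.6% for Hmga1. The count of 4 of 8 is therefore not read against 13.2%. A match is a description of sequence, and its absence says only that these letters are not in this window.

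**Figure D1:**
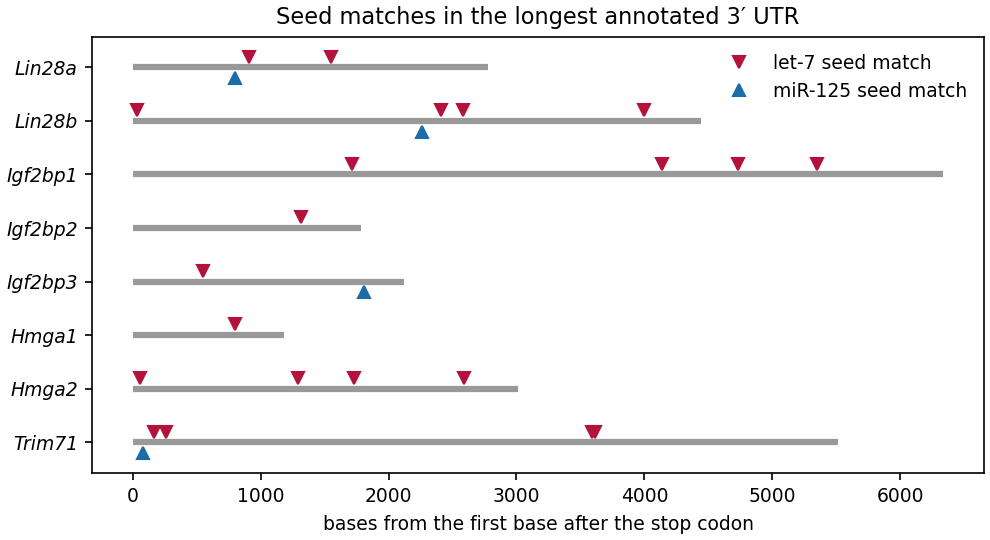
Position of each seed match in the longest annotated 3′ UTR of the 8 genes; the x axis is in bases from the first base after the stop codon, the grey bar is the UTR, red triangles are let-7 matches and blue triangles miR-125 matches. Every gene has at least 1 red triangle, and 4 genes have 4.

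The microRNAs themselves were not measured. Of 15 let-7, miR-98 and miR-125 hairpin genes listed, 13 were in the tables and had 0 counts in both libraries. These hairpins are 71 to 108 bases long, shorter than the RNA taken into the libraries, and 9 of the 13 had an effective length of 0, so the value of 0 says nothing about their abundance. Hosts of 5 of these hairpins were measured. Mir99ahg, the long non-coding host of let-7c and miR-125b, was at 72.52 TPM in replicate 1 and 63.79 in replicate 2, Huwe1, a ubiquitin ligase gene that holds Mirlet7f-2 and Mir98, at 47.03 and 38.58, and Wdr82, which holds Mirlet7g, at 30.33 and 29.66. A host RNA is not a mature microRNA, and its level was not compared with one.

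Of the 8 genes, 5 reached 1 TPM in both libraries (Hmga1, Igf2bp3, Igf2bp2, Igf2bp1 and Lin28b), and Hmga2, Lin28a and Trim71 did not, where 62.1% of protein-coding genes did. In bulk tissue, fewer cells that express a gene and less RNA per cell cannot be told apart. Bounds given after a TPM are the deposited credibility bounds, whose level is not stated. The sign ± joins a mean to the SD of the libraries (n = 2).

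Lin28a and Lin28b, the let-7 blockers, stood far apart. Lin28b (ENSMUSG00000063804.7, chr10:45376620-45486395 on the minus strand of GRCm38) was at 3.45 TPM in replicate 1 (3.01 to 3.73) and 2.82 in replicate 2 (2.46 to 3.06), from 339 and 322 expected counts. The mean was 3.13 ± 0.445 TPM, above 45.0% of protein-coding genes and above 28.7% of those with a count in both libraries. Replicate 2 was the lower, and the bounds of the libraries touch only between 3.01 and 3.06.

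Lin28a (ENSMUSG00000050966.5, chr4:134003330-134018841, minus strand) had 20 expected counts in each library, at 0.32 and 0.34 TPM. Its deposited bounds, 0.332 to 1.33 and 0.354 to 1.61, lie above those point values, and the posterior mean TPM of the same tables was 0.78 and 0.94. The gene level of Lin28a is therefore known only as below 1 TPM on both columns, with upper bounds above 1. Its longest transcript model, Lin28a-201 (3505 bases), held 20.0 and 19.36 of the counts, at 0.32 and 0.26 TPM. The bounds of that model were 0.19 to 0.462 and 0.139 to 0.367. Its posterior share of the gene's TPM was only 41.68% and 26.41%. The rest of the posterior share went to models of 394 to 484 bases with at most 0.64 counts each. Lin28b exceeded Lin28a by a log2 TPM ratio of 3.43 in replicate 1 and 3.05 in replicate 2 (3.24 ± 0.268), a 9.46-fold difference, and by a log2 of 1.83 with posterior means. On the point values, which for Lin28a lie below its bounds, Lin28b took 91.5% and 89.2% of the summed TPM of the pair. The share was not computed with posterior means.

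The Igf2bp genes encode proteins that bind mRNAs such as Igf2 and Actb and affect their stability, transport and translation, and all 3 were expressed. Igf2bp3 (ENSMUSG00000029814.8, chr6:49085223-49214957, minus strand) was the highest, at 12.63 TPM (11.5 to 13.1) in replicate 1 and 8.23 (7.43 to 8.63) in replicate 2, from 992.02 and 753 counts. Igf2bp2 (ENSMUSG00000033581.12, chr16:22059009-22163299, minus strand) was at 10.83 (10.1 to 13.1) and 7.33 (6.92 to 9.09), from 637 and 519 counts. Igf2bp1 (ENSMUSG00000013415.5, chr11:95957163-96005940, minus strand) was at 7.96 (7.26 to 9.77) and 5.18 (4.84 to 6.59), from 1061 and 816 counts. Each gene was lower in replicate 2, and for each the bounds of the 2 libraries do not overlap.

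Means were 10.4 ± 3.11 TPM for Igf2bp3, 9.08 ± 2.47 for Igf2bp2 and 6.57 ± 1.97 for Igf2bp1, and the library values of neighbours overlap. Within each library the order was nonetheless the same, and the proportions were close. Igf2bp3 took 40.2% and 39.7% of the family's TPM, Igf2bp2 34.5% and 35.3%, and Igf2bp1 25.3% and 25.0%, while the family's sum went from 31.4 TPM in replicate 1 to 20.7 in replicate 2. The log2 TPM ratio of Igf2bp1 to Igf2bp3 was -0.67 in both libraries (-0.67 ± 0.00136) and that of Igf2bp1 to Igf2bp2 was -0.44 and -0.50 (-0.47 ± 0.0401). On expected counts, which are not per length, these ratios turn to 0.11 and 0.69, since the Igf2bp1 transcript is the longest of the family.

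Hmga1 and Hmga2 encode AT-hook proteins that bind the minor groove of AT-rich DNA and loosen chromatin. Hmga1 (ENSMUSG00000046711.11, chr17:27556497-27563674, plus strand) was the highest of the 8 genes, at 108.42 TPM (101 to 111) in replicate 1 and 118.5 (111 to 121) in replicate 2, from 2968.93 and 3687.31 counts. Its mean of 113 ± 7.13 TPM was above 93.0% of protein-coding genes and 10.9 times that of Igf2bp3, the next gene. Replicate 2 was the higher.

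Hmga2 (ENSMUSG00000056758.10, chr10:120361275-120476469, minus strand), known for sustaining self-renewal of fetal neural stem cells, was at 0.64 TPM (0.479 to 0.86) and 0.37 (0.265 to 0.54), from 43 and 29 counts. Replicate 2 was again the lower, though the bounds overlap. Hmga1 exceeded Hmga2 by a log2 TPM ratio of 7.40 in replicate 1 and 8.32 in replicate 2 (7.86 ± 0.650), or 233-fold, and took 99.4% and 99.7% of their sum. The log2 TPM ratio of Hmga2 to Lin28b was -2.43 in replicate 1 and -2.93 in replicate 2, a 6.41-fold difference.

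Trim71 (ENSMUSG00000079259.2, chr9:114507133-114564369, minus strand), a repressor of mRNAs needed for closure of the neural tube, was the lowest of the 8 genes. It had 25 expected counts in each library, at 0.15 TPM (0.0924 to 0.205) and 0.13 (0.0802 to 0.176). With its mean of 0.140 ± 0.0141 TPM it stood above 26.8% of all protein-coding genes, but above only 5.37% of those with a count in both libraries.

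By mean TPM the order was Hmga1, Igf2bp3, Igf2bp2, Igf2bp1, Lin28b, Hmga2, Lin28a and Trim71. Across the pools the values of Igf2bp3 and Igf2bp2 overlap, as do those of Igf2bp2 and Igf2bp1. Within each library the point values of these 3 genes kept this order, with overlapping bounds for Igf2bp3 and Igf2bp2. The values of the other neighbours do not overlap. Between Hmga2 and Lin28a this holds for the point values only, since the posterior mean TPM of Lin28a (0.860 ± 0.113) was above that of Hmga2 (0.530 ± 0.184).

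**Figure D2:**
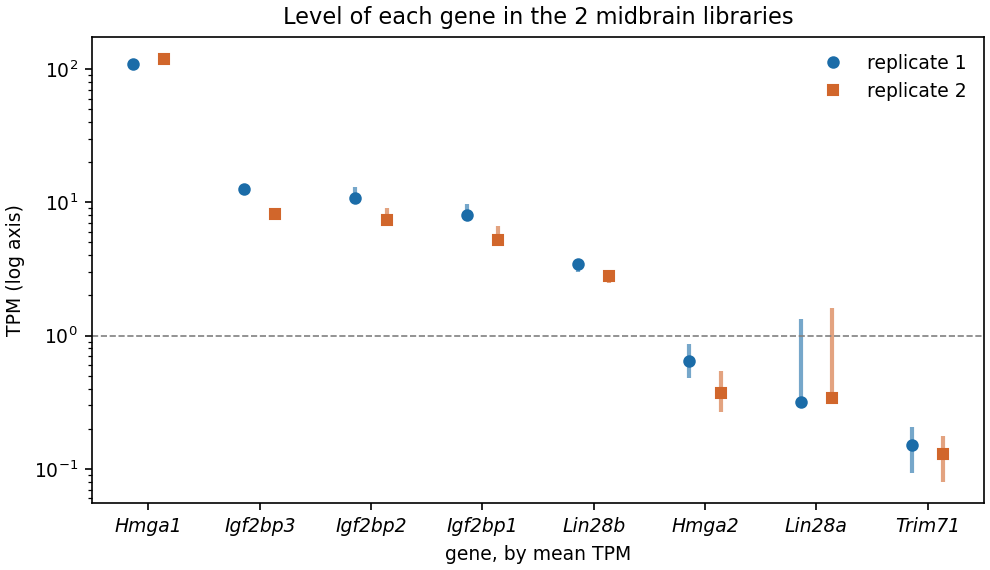
TPM of the 8 genes on a log axis, ordered by mean; points are the libraries of replicate 1 (blue circles) and replicate 2 (orange squares), bars the deposited credibility bounds, and the dashed line 1 TPM. Hmga1 stands above 100 TPM, the Igf2bp genes and Lin28b between 2.82 and 12.63, and the others below 1.

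Sequence shared with other genes matters for Hmga1. Of its 31-base words, 62.1% also occur in Hmga1b, a near copy at chr11:120762794-120764419, and 92.7% of the words of Hmga1b occur in Hmga1. Hmga1b was given 34.07 and 79.69 counts (1.21 and 2.42 TPM), with bounds from 0.655 to 15.6 TPM in replicate 1, so the split between the copies is uncertain. It held 1.13% and 2.12% of their summed counts, and the sum gave a log2 ratio between the pools of 0.14, against 0.13 for Hmga1 alone. For the other 7 genes at most 2.26% of words (Hmga2) occur in another gene on the same strand. On the opposite strand, 18.5% of the words of Igf2bp3 are shared, nearly all with Malsu1 (705.98 and 839 counts), and 3.02% of those of Hmga1 with AI413582 (548 and 731 counts). For Lin28a the share was 5.18%, all with Gm13061 (1 and 0 counts). For Hmga2 it was 3.47%, and 1700006J14Rik (8 and 4 counts) held the most, 1.67%. Whether counting used strand is not stated, and without it reads of such overlaps cannot be told apart.

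At transcript level Igf2bp1 was mainly its full-length coding form. Igf2bp1-201 took 85.99% and 87.16% of the gene's TPM, and its 4 non-coding models together 13.4% ± 0.827, each from at most 6.72 expected counts. Igf2bp2 was more divided. Coding models took 62.0% ± 0.283 of its TPM, Igf2bp2-201 with 49.27% and 49.03% and Igf2bp2-202 with 12.88% and 12.72%, and 5 retained-intron models took 38.1% ± 0.290. The largest of those, Igf2bp2-207, had 16.71% and 18.05%. Its deposited TPM bounds were 0.089 to 3.53 in replicate 1 and 0.0282 to 2.47 in replicate 2. Those of Igf2bp2-202 were 0.00605 to 3.37 and 0.018 to 2.27. The split between coding and retained-intron models of Igf2bp2 is therefore uncertain, which the SD of the 2 libraries does not show. Igf2bp1-201 and Igf2bp2-201 each took nearly the same share in both libraries, although the levels of their genes differed.

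Posterior means gave Igf2bp1-201 a smaller share, 77.9%, and Igf2bp2-201 41.6%. Lin28b, Igf2bp3 and Trim71 have 1 model each. Of the Hmga1 models only Hmga1-204 has the same length in the annotation used here, and it took 12.58% and 10.62%. The other Hmga1 models are not described further. All counts of Hmga2 were given to Hmga2-201, and the posterior shares were 62.29% and 66.10%.

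**Figure D3:**
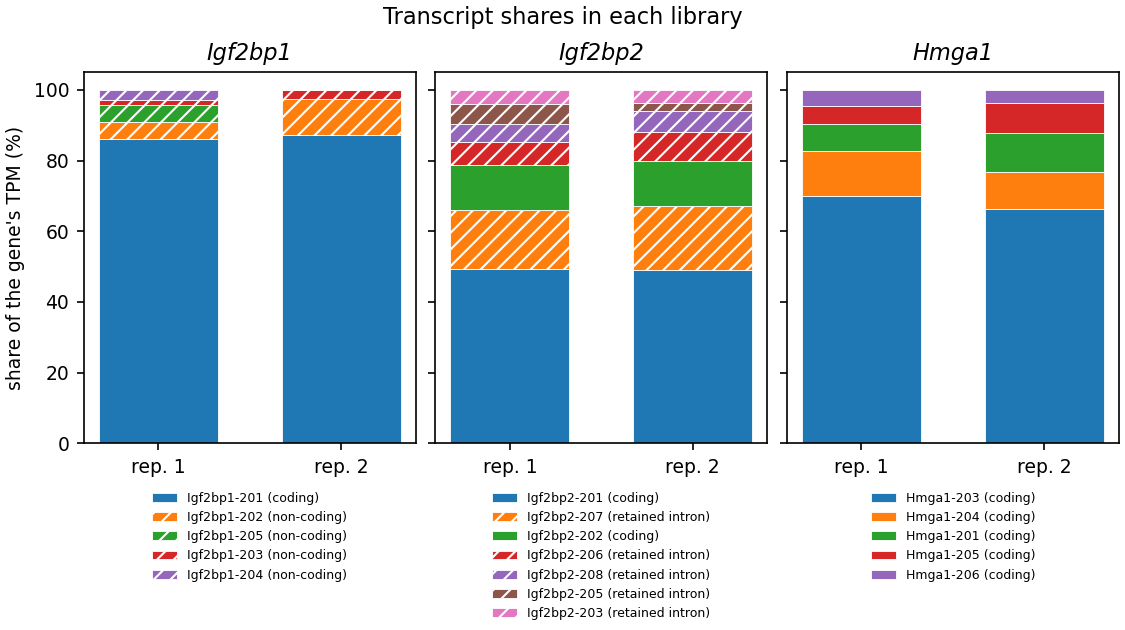
Share of each gene's TPM (percent, y axis) by transcript model in replicate 1 and replicate 2 for Igf2bp1, Igf2bp2 and Hmga1; solid colours are coding models and hatched ones non-coding or retained-intron models. The coding models add up to a mean of 62.0% for Igf2bp2 and 86.6% for Igf2bp1, and the Hmga1 models are all coding, with only Hmga1-204 of the same length in both annotations.

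Between the pools, scaled counts of 7 of the 8 genes were lower in replicate 2 and those of 1, Hmga1, were higher; for Lin28a and Trim71 the direction comes from the scaling of equal counts. Ratios are log2 of replicate 2 over replicate 1 on expected counts with 0.5 added, scaled by TMM, and brackets hold 95% intervals that cover counting error only. All 8 genes had the mean count of at least 10 that was required. Hmga2 alone passed 1.5-fold, lower in replicate 2 by 1.674-fold (1.03 to 2.80), a log2 of -0.74 [-1.48, -0.04] on 43 and 29 counts. Among all 17773 genes tested, 3.90% were at least 1.5-fold lower, and 5.04% at least 1.5-fold higher, where none of the 8 genes stood. That count of 1 in 8 rests on a gene with few reads, and nothing more is read from it.

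The better counted genes give tighter values. Igf2bp3 had a log2 ratio of -0.58 [-0.72, -0.44], which is 1.495-fold and just inside the 1.5-fold line, Igf2bp1 -0.56 [-0.70, -0.43] and Igf2bp2 -0.48 [-0.65, -0.31]. Among genes with a mean count of at least 50, 1.36% were as low as Igf2bp3, 1.46% as low as Igf2bp1 and 2.16% as low as Igf2bp2. Lin28b was at -0.26 [-0.48, -0.03], with 8.28% of such genes as low, and Hmga1 at 0.13 [0.06, 0.20]. Lin28a and Trim71, each with equal counts in both libraries, were both at -0.18, with intervals from -1.15 to 0.79 and from -1.04 to 0.68, so no difference was detectable at their depth. On the ratio of deposited TPM, Lin28a turned to 0.09. The interval left out 0 for 6 of the 8 genes. Such intervals narrow as read counts rise, and the share of all genes tested whose interval leaves out 0 was not counted. Nothing is therefore read from that count of 6. The median over the 8 was -0.37, beside 0.01 over all genes tested, of which 48.1% were below 0.

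**Figure D4:**
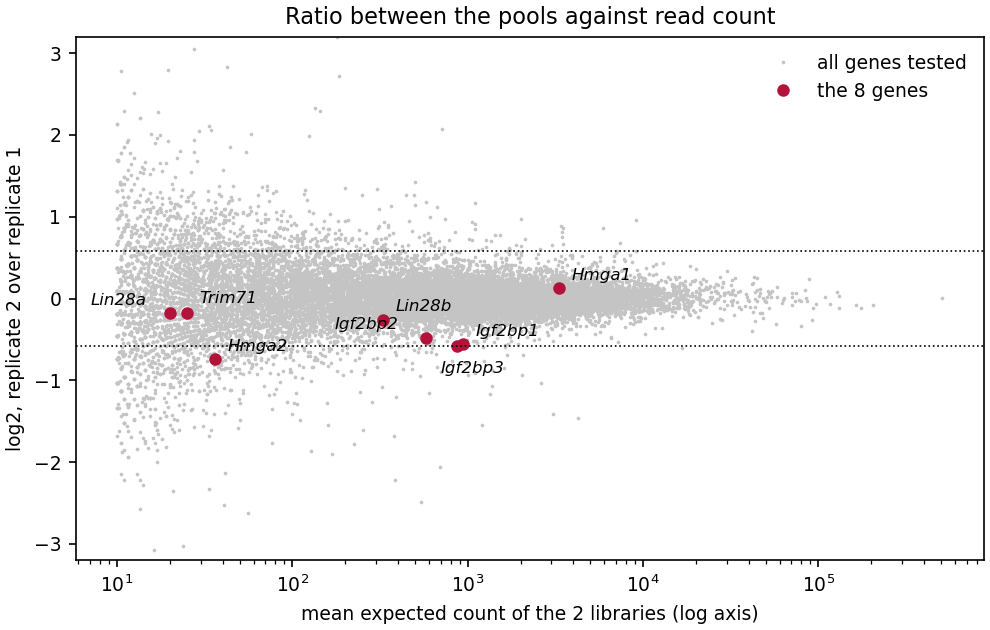
Log2 ratio of replicate 2 over replicate 1 (y axis) against the mean expected count (log x axis) for all 17773 genes tested (grey) and the 8 genes (red); dotted lines mark 1.5-fold, and 32 genes lie outside the plotted range. Igf2bp1, Igf2bp2 and Igf2bp3 sit at the lower edge of genes with like counts, Hmga1 within the cloud above 0, and Hmga2 among genes with few counts.

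The scale of the ratios depends on what is held equal. Scaling to the spike-in totals moves the median of all genes to -0.59, and Hmga1 then turns to -0.47, still above that median, while Igf2bp3 is at -1.18, Igf2bp1 at -1.16, Igf2bp2 at -1.08 and Lin28b at -0.86. On that scale 98.3% of the genes past 1.5-fold were lower in replicate 2, against 43.6% with TMM. Relative to the shifted median the directions of the 8 genes were those given above.

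Markers of other cell states also differed between the pools. All 8 genes of the dividing-cell list were lower in replicate 2, with a median log2 of -0.38 and summed levels of 232 and 187 TPM, led by Mki67 at 3.65 and 2.27 TPM (-0.65). The smallest shifts were those of Pcna (-0.07 [-0.16, 0.02]) and Mcm5 (-0.09 [-0.22, 0.03]), whose intervals include 0. Of the 8 neural progenitor genes 5 were lower and 3 higher, with a median of -0.19: Sox2, a progenitor transcription factor, was at 16.43 and 10.21 TPM (-0.65), while Fabp7, a radial glia gene, was at 1253.09 and 1564.54 (0.36). Of 6 astrocyte genes 5 were higher, with a median of 0.69 and sums of 600 and 1010 TPM, among them Apoe (0.96), Aldoc (0.81) and Aqp4 (1.42) past 1.5-fold. None of these 22 genes was at 0 in either library. Their part in the ratios of the Igf2bp, Lin28 and Hmga2 genes was not tested.

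The medians of the remaining marker lists lay between -0.16 and 0.23. The median log2 was -0.02 for 6 young neuron genes (sums 5070 and 5130 TPM), 0.23 for 6 midbrain genes, all higher (232 and 259), -0.10 for 6 endothelial genes (153 and 144) and -0.04 for 8 genes of pericytes, fibroblasts and meninges (290 and 304). It was 0.16 for 6 genes of microglia and macrophages (67.4 and 79.8), -0.16 for 6 red cell genes (12800 and 11300), -0.09 for 4 choroid plexus genes (487 and 426) and 0.13 for the 5 of 6 cartilage and muscle genes with enough counts (73.3 and 66.2). Ptprc, Kl, Acan, Myod1 and Myh3 were below 1 TPM in both libraries, and none of them was at 0. The part of these cells in the ratios of the 8 genes was not tested.

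**Figure D5:**
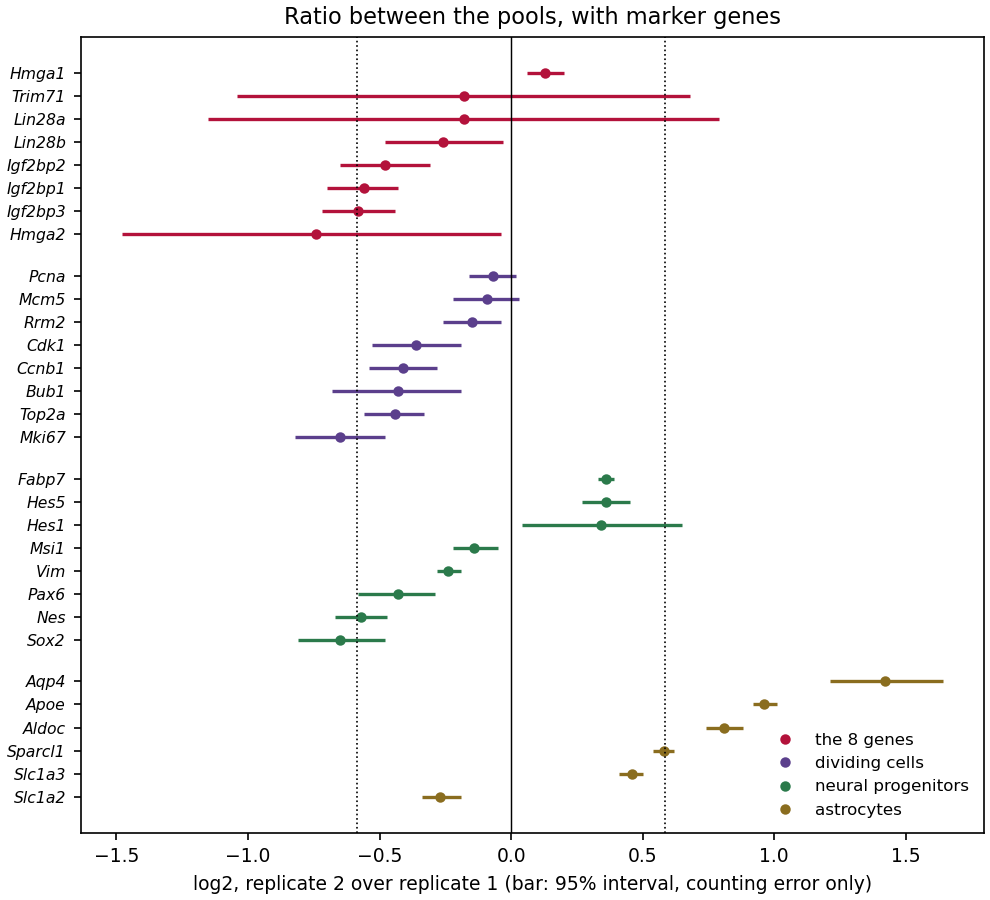
Log2 ratio of replicate 2 over replicate 1 (x axis) for the 8 genes and for markers of dividing cells, neural progenitors and astrocytes; points are ratios, bars 95% intervals for counting error only, and dotted lines 1.5-fold. All 8 dividing-cell genes and 7 of the 8 genes described are left of 0, and 5 of the 6 astrocyte genes are right of it.

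Genes that mature let-7, destroy its precursors or regulate these steps were present in both libraries. All 18 listed genes of let-7 maturation reached 1 TPM in each library, led by Hnrnpa1 (532 ± 33.8 TPM), Ddx5 (331 ± 38.7) and Prkra (97.8 ± 2.62), and none differed by 1.5-fold. Of these, 16 were lower and 2 higher in replicate 2, with a median log2 of -0.12. Some enzymes were chosen for mention after their values were seen. The uridylyl transferases Tut4 (48.59 and 41.87 TPM) and Tut7 (25.0 and 22.09) act with Lin28. The exonuclease Dis3l2 (38.72 and 35.62) acts on their product. Dicer1, which cuts the hairpin, was at 11.17 and 9.02 TPM. In each library Tut4, Tut7 and Dis3l2 were at higher TPM than Lin28b and Lin28a.

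Of 25 other described let-7 targets, 24 reached 1 TPM in each library, with Nras, a small GTPase gene (66.8 ± 0.700 TPM), among the highest. In replicate 2, 19 were lower and 6 higher, with a median log2 of -0.13, and 1 passed 1.5-fold, the nuclear receptor Nr6a1, at 1.08 and 0.69 TPM (-0.61 [-1.04, -0.19]). That is 1 of 25, beside 3.90% of all genes tested.

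Among 15 partners and cargo RNAs of Igf2bp proteins, all at 1 TPM or more in both libraries, 9 were lower and 6 higher, with a median of -0.05 and none past 1.5-fold. The highest were Actb, the beta-actin mRNA these proteins carry (5640 ± 312 TPM), Mapt (1020 ± 21.1) and Ybx1 (612 ± 12.7). The namesake cargo Igf2, singled out after its values were seen, was at 75.85 and 72.83 TPM, and the imprinted RNA H19 at 20.82 and 23.51. Their log2 ratios between the pools were 0.04 [-0.06, 0.13] and 0.20 [0.06, 0.35].

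For relatives of the other genes no member passed 1.5-fold. The 7 NHL-domain Trim relatives and repression partners of Trim71 were all at 1 TPM or more, led by Trim32 (190 ± 8.58 TPM), Trim2 (145 ± 6.03) and Ube2n (143 ± 1.24), with 4 higher, 3 lower and a median of 0.06. Cdkn1a, a cell cycle inhibitor whose mRNA Trim71 is known to repress, was at 112.03 and 143.56 TPM (0.43 [0.35, 0.52]), and was singled out after its values were seen. The 6 cold shock domain genes related to Lin28 were led by Ybx1 and included Csdc2 (224 ± 28.0 TPM), with 3 higher, 3 lower and a median of -0.04.

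The 9 other high mobility group genes were led by Hmgn2 (802 ± 29.1 TPM), Hmgb1 (586 ± 41.7) and Hmgb3 (455 ± 33.3), each above Hmga1, with 2 higher, 7 lower and a median of -0.08. Of the 6 genes linked to Hmga2 in self-renewal, Bmi1 (17.0 ± 1.14), Junb (4.43 ± 0.0141) and Cdkn2c (1.56 ± 0.198) were the highest. Cdkn2a, the cell cycle inhibitor locus that Hmga2 is known to hold down, had 0 counts in both libraries, and its neighbour Cdkn2b was at 0.58 and 0.72 TPM. The 5 with enough counts were 4 higher and 1 lower, with a median of 0.07.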

How the data were processed

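Per the labels' protocols, each library was made from 10 ng of RNA over 200 nucleotides with spike-ins. Per the readme deposited by the authors, reads were mapped to mm10 and quantified against GENCODE M4; not given in the sources used here are the aligner, the quantifier and the strand setting. The deposited expected count is, per the file headers, the estimated number of reads of a gene, not normalized. The deposited TPM and FPKM are scaled by effective length and library, the deposited transcript shares are a percent of gene TPM, and the deposited credibility bounds of TPM are treated as a signal of unstated level.

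Symbols and coordinates came from GENCODE M21 (GRCm38, the same assembly as mm10) by identifier; 884 genes without a match held 0.197% and 0.183% of counts. A gene was detected at 1 TPM in both libraries. Ratios used expected counts plus 0.5, scaled with TMM factors of edgeR 4.0.16 (DESeq2 1.42.0 size factors as an alternative), both on counts rounded to whole numbers, for genes with a mean count of at least 10; intervals are exact binomial (Clopper-Pearson, 95%) and cover counting error only. The ratio calculation was tested on simulated data. With 1 group and n = 2 no test was possible, and the labels do not say how far the pools are separate litters. All 8 genes are named; of each list the 3 highest, those past 1.5-fold and those below 1 TPM may be named, and others were chosen after their values were seen. Some list members are not reported here. The genes, the 9 pathway and 11 marker lists and the alternatives were chosen with earlier results of these data known. Calculations ran in Python 3.11.15 (numpy 2.4.6, pandas 2.3.3, scipy 1.17.1, matplotlib 3.10.9) and R 4.3.3.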

Additional observations from a re-analysis of the deposited data

How the results depend on the processing

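With 1 group of 2 libraries, depth limits Lin28a, Trim71 and Hmga2, which rest on 20 to 43 counts. Detection of 5 genes held in either library alone and under all alternatives tried. The count of 1 gene past 1.5-fold lower became 2 with total expected counts, 3 with the ratio of deposited TPM and 7 with spike-in totals. Of all genes tested, 3.97%, 4.95% and 50.9% were that much lower under these settings, in the same order. The count was 0 at a minimum mean count of 50, which leaves Hmga2 out, and 0 at 2-fold. At each of those, 1.33% of all genes tested were lower by the fold used. Igf2bp3 and Igf2bp1 lie so near the 1.5-fold line that small shifts of scale carry them over it. The log2 ratio of Lin28b to Lin28a was 1.83 with posterior mean TPM and 4.05 with expected counts, and ranged from 3.05 to 3.43 with either replicate left out. That of Igf2bp1 to Igf2bp3 was -0.52 with posterior mean TPM and 0.11 with expected counts, and that of Igf2bp1 to Igf2bp2 was 0.69 with expected counts; both turn because counts are not per length. With expected counts Hmga1 to Hmga2 was 6.55 (7.40 to 8.32 with a replicate left out) and Hmga2 to Lin28b was -3.23 (-2.93 to -2.43). Igf2bp1 to Igf2bp2 ranged from -0.50 to -0.44 with a replicate left out, and Igf2bp1 to Igf2bp3 stayed at -0.67. All 8 genes had a let-7 match in the longest 3′ UTR and 7 in that of the highest transcript whose length is the same in both annotations. Igf2bp3 has no such model, its own differing by 1 base, and Hmga1-204 stands in for Hmga1-203, the highest Hmga1 model, which was not searched. Of the other values, 168 were labelled the same and 19 moved. With 2 libraries, a TPM or transcript share with a replicate left out always lies within the SD, so those cases could not move. Many of the rest are list counts that stayed at 0, so the tally does not measure robustness. Of all genes, 305 were higher and 191 lower at a minimum count of 50, 261 and 236 at 2-fold, and 3514 and 3334 with no minimum, against 896 and 693. A ratio between pools cannot be had with a replicate left out. Summing Hmga1 with Hmga1b was chosen after seeing the data. No paired analysis was possible because there is 1 group.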

Other observations

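Genes of the onset of gliogenesis and the late neuron stage were all expressed, 8 of 8 at 1 TPM or more in both libraries. The highest were Hes5, a Notch effector (102 ± 16.0 TPM, n = 2), Nr2f2 (55.8 ± 10.5) and Zbtb20 (53.1 ± 4.00). In replicate 2, 4 were higher and 4 lower, the median log2 ratio was 0.00 and none passed 1.5-fold. Nfix, a factor of late progenitors, was at 37.03 and 45.88 TPM, and Nr2f1, an orphan nuclear receptor, at 50.8 and 37.06; both were singled out after their values were seen.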
